A study of Mus musculus with 10 samples.

Results

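Imprinted genes are genes expressed mainly from the copy inherited from 1 parent. The 35 genes described here were chosen by name as known imprinted genes of the mouse, and all 35 were found among the 22891 genes of the deposited table. By textbook knowledge 21 of them are expressed from the paternal copy and 14 from the maternal copy, in some cases in a few tissues only, and they lie in 18 loci, with 15 of the genes on chromosome 7. The RNA came from whole ovaries taken at 3 weeks of age without hormone stimulation, and was sequenced in 5 samples labelled Uba3 cKO and 5 labelled Control. All 10 samples are labelled as a mixed C57/Bl6/N;129SvEv7 strain. UBA3 is the catalytic part of the NEDD8-activating enzyme, which starts the attachment of NEDD8, a small protein related to ubiquitin, and the series title places the work in a study of neddylation, mitochondrial transcription and oocyte quality. The labels do not say which exons of Uba3 were removed, which Cre line or cell type was used, or what alleles the controls carried.

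An imprint is a parental mark of DNA methylation that is laid down in the germ line and kept in body cells after fertilisation. Growing oocytes acquire the maternal marks during the growth of the follicle. So an ovary holds somatic cells with both parental marks beside growing oocytes that carry or are acquiring the maternal ones. Many imprinted genes act on growth. Paternally expressed ones such as Igf2 and Peg3 are known for promoting the growth or nurture of offspring, and maternally expressed ones such as Cdkn1c, Grb10 and H19 for restraining it. A count of reads per gene does not tell the parental copies apart, so the values below are summed over both.

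Promoter windows of members are shown because the marks of several loci lie at them. Windows run from 250 bases before to 50 bases after a gene's start and come from RefSeq on GRCm38.p6. Windows of 28 of the 35 members were counted. The other members, Impact among them, were left out of the counts, which need not mean that they lack a window. The hexamer TGCCGC, bound in its methylated form by ZFP57, a zinc finger protein that keeps imprints in the embryo, was searched on both strands, and no other motif was searched. It was present in 11 of the 41 member windows (26.8%), against 3813 of 32851 windows of all genes (11.6%). The member windows held a median of 10 CpG sites, against 7 in all windows. These counts are a description of the letters. Several members have more than 1 window, and 2 windows of Mest overlap almost wholly, so the same hexamers are counted in both. The hexamer itself contains a CpG, and the shares were not compared at like CpG content. The windows of Nap1l5 (chr6:58907077-58907376, minus strand), Nnat (chr2:157559828-157560127, plus strand), Mest (chr6:30737800-30738099, plus strand) and Grb10 (chr11:12037371-12037670, minus strand) are given below. They belong to the paternally expressed Nap1l5 and Nnat, which had the highest levels per length, and to Mest, which has 2 hexamers there. The last belongs to the maternally expressed Grb10, which had the largest SD over the 10 libraries. Capitals mark the hexamer on either strand.
Nap1l5: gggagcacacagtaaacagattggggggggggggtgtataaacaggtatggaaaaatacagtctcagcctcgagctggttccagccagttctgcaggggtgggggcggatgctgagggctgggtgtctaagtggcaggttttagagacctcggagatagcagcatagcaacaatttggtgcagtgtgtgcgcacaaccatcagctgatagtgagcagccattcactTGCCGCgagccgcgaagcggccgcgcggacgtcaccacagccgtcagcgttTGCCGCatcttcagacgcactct
Nnat: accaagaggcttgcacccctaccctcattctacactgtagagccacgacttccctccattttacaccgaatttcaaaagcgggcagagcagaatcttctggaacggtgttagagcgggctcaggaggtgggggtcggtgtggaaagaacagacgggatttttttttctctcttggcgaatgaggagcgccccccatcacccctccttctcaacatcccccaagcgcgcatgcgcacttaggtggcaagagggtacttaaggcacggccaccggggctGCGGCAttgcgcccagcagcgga
Mest: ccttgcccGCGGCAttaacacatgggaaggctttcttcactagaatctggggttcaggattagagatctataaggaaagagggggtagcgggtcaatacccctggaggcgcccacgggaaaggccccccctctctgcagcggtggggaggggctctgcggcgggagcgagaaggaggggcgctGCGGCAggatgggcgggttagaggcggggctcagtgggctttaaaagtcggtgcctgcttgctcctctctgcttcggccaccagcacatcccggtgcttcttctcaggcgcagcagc
Grb10: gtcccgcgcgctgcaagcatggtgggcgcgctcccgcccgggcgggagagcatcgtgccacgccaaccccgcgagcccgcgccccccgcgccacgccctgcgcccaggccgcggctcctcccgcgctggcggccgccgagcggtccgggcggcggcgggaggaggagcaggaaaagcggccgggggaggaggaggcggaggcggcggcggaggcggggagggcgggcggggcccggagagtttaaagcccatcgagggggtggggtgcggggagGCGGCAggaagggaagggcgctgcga
The windows shown of Nap1l5, Nnat and Mest hold 17 CpG sites each, and that of Grb10 holds 45. Grb10 has another window with 9 CpG sites, and Mest has another with 8, and neither of these holds the hexamer.

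Several members are also hosts of microRNAs, short RNAs that pair with messenger RNAs through their seed (bases 2 to 8, in capitals here). Within the gene bodies of 7 members lay 43 mature microRNAs, of which 26 were in Mirg, 6 in Rian, 3 in Meg3 and 2 each in H19, Mest, Igf2 and Usp29. Both arms of the H19 microRNA and an example from each of Mest, Meg3, Rian and Mirg are shown, with sequences from RefSeq on GRCm38.p6. These 5 hosts were tested and are described below, as is Usp29, whose microRNAs are not shown.
mmu-miR-675-5p: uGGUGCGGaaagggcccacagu
mmu-miR-675-3p: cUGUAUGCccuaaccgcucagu
mmu-miR-335-5p: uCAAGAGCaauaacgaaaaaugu
mmu-miR-770-5p: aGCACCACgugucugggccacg
mmu-miR-370-3p: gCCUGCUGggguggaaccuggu
mmu-miR-410-3p: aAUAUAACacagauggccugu
The miR-675 arms come from H19, miR-335 from Mest, miR-770 from Meg3, miR-370 from Rian and miR-410 from Mirg. Of the 43, miR-453 and miR-496a-5p, both in Mirg, were the only ones with the same seed, GGUUGCC. The RNA of the host genes was measured here, and the mature microRNAs are not analysed here.

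The deposited values are log2 levels normalised by the authors, with library medians between 6.29 and 6.44, and the sequencing depth behind them is unknown. The test took genes averaging 3.32 or more over the libraries, the log2 of 10, and these were 15629 genes with 30 of the 35 members. Uba3 itself stood at 10.12 ± 0.069 in Uba3 cKO ovaries and 10.12 ± 0.18 in controls (SD, n = 5 each), a difference of 0.0032 on the log2 scale, so its whole-gene level gave no check of the labels. The mean level of 12 granulosa markers lay between 12.63 and 13.01 in Uba3 cKO ovaries and between 12.68 and 12.89 in controls. The mean of 23 oocyte markers ran from 9.12 to 9.93 in Uba3 cKO ovaries and from 9.34 to 9.98 in controls (1.82-fold over all libraries). The mean of 12 stroma markers ran from 9.78 to 10.46 in Uba3 cKO ovaries and from 9.67 to 10.41 in controls (1.72-fold). For the marker levels of 11 cell types, exact permutation p between the groups lay between 0.373 and 0.960, and no gene of these lists was called. In a whole organ, fewer cells of a type and less RNA per cell cannot be told apart. The labels do not state whether each sample is a different mouse, so the p-values cover the variation among these samples, which may be technical.

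No imprinted gene was called different between the groups. None passed adjustment over all genes (limma with Benjamini-Hochberg adjustment, smallest adjusted p among the members 1), as for all genes tested, of which 0.0% were called. At an unadjusted p under 0.05 there were 2 of 30 members, Peg10 and Kcnq1ot1, both lower in Uba3 cKO ovaries, against 1.79% of all genes tested (0.973% of all genes higher and 0.819% lower). The groups overlapped in all 30 members tested, whereas they did not overlap in 0.32% of all genes. The mean was higher in Uba3 cKO ovaries for 15 members and lower for 15, with a median log2 difference of -0.00016, beside 0.00034 over all genes tested, of which 50.2% were higher and 49.8% lower. Among paternally expressed members 8 were higher and 11 lower, with a median of -0.013, and among maternally expressed members 7 were higher and 4 lower, with a median of 0.052. Differences ran from -0.36 for Peg10 to 0.34 for Meg3. For 25 of 30 members the 95% interval stayed inside 0.5 log2 units on either side of 0, beside 94.9% of all genes.

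**Figure D1:**
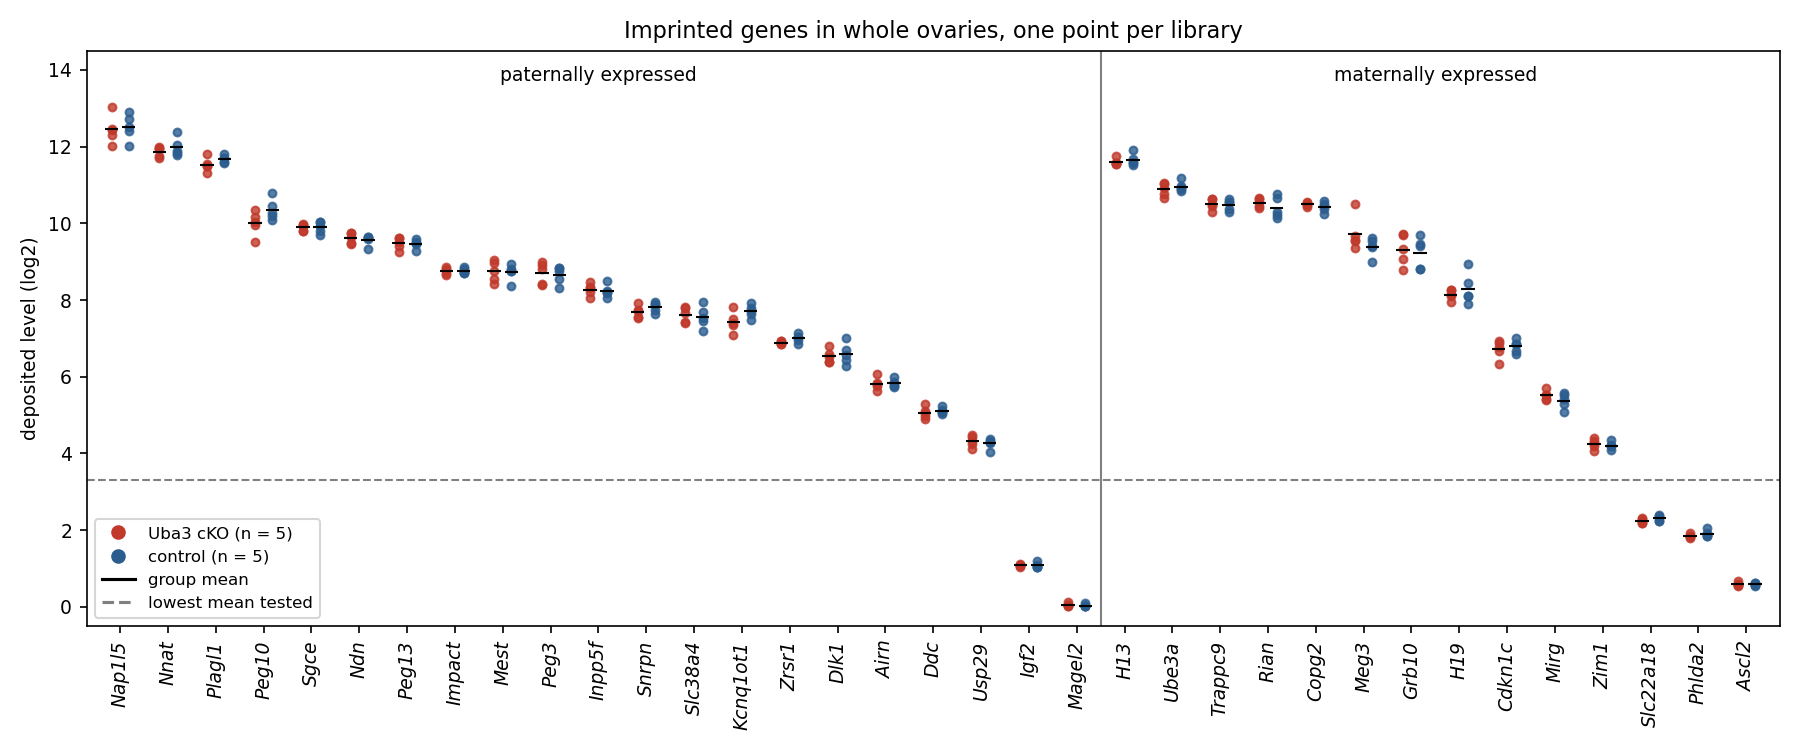
Deposited log2 level (y axis) of the 35 imprinted genes (x axis), paternally expressed ones on the left and maternally expressed ones on the right. Each point is a library, black bars are group means, the dashed line is the lowest mean tested (3.32), and 5 genes lie below it while the groups overlap in all the others.

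The 5 untested members lay below the level tested, which does not take transcript length into account. Igf2, an insulin-like growth factor of the fetus, had values between 1.03 and 1.11 in Uba3 cKO ovaries and between 1.03 and 1.18 in controls. Magel2, a neighbour of Ndn that is active in the hypothalamus, averaged 0.046 in Uba3 cKO ovaries and 0.029 in controls. The placental genes Ascl2, a transcription factor, and Phlda2, a growth inhibitor, averaged 0.60 and 1.85 in Uba3 cKO ovaries and 0.59 and 1.91 in controls. Slc22a18, a transporter gene beside Phlda2, averaged 2.24 in Uba3 cKO ovaries and 2.32 in controls. So 3 of the 5 members of the Kcnq1 locus were below the level tested in both groups.

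Levels of different genes are compared per length, as the mean log2 level minus the log2 of the exon length in kilobases. On that scale the highest members were Nap1l5 at 11.60, a nucleosome assembly protein relative that lies in an intron of Herc3, and Nnat at 11.06, neuronatin, a small membrane protein. Plagl1, a zinc finger transcription factor that acts on other imprinted genes, followed at 8.64 and H13, a signal peptide peptidase of the endoplasmic reticulum, at 8.48. Per length the lowest tested member was Usp29 at 0.12, a deubiquitinase gene that shares its promoter region with Peg3. The transform behind the deposited values is not named, and transforms that draw low genes toward their mean understate the differences of members such as Zim1, Usp29, Ddc and Mirg.

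The Dlk1-Meg3 locus held the largest positive difference. Its maternal copy gives the long noncoding RNAs Meg3, Rian and Mirg, which host microRNAs and small nucleolar RNAs, and its paternal copy gives Dlk1, a membrane ligand that holds back differentiation. Meg3 stood at 10.51, 9.54, 9.66, 9.36 and 9.56 in Uba3 cKO replicates 1 to 5, against 8.99, 9.53, 9.41, 9.39 and 9.61 in control replicates 1 to 5. Uba3 cKO replicate 1 was far above all other libraries and control replicate 1 below them all, while the other libraries of both groups overlapped. The log2 difference of Meg3 was 0.34 (standard error 0.19, 95% interval from -0.063 to 0.74), with an unadjusted limma p of 0.0916, and it was 0.14 without Uba3 cKO replicate 1. Rian stood at 10.67, 10.41, 10.63, 10.55 and 10.46 in Uba3 cKO replicates 1 to 5, against 10.13, 10.65, 10.21, 10.30 and 10.76 in control replicates 1 to 5. Mirg stood at 5.70, 5.43, 5.53, 5.39 and 5.52 in Uba3 cKO replicates 1 to 5, against 5.07, 5.29, 5.57, 5.52 and 5.42 in control replicates 1 to 5. Uba3 cKO replicate 1 was the highest library of Mirg and the second highest of Rian, and control replicate 1 the lowest of both. The log2 difference was 0.13 (standard error 0.11, 95% interval from -0.12 to 0.38) for Rian and 0.14 (standard error 0.10, 95% interval from -0.079 to 0.36) for Mirg. Dlk1 stood at 6.38, 6.58, 6.79, 6.39 and 6.51 in Uba3 cKO replicates 1 to 5, against 6.29, 6.70, 7.003, 6.43 and 6.56 in control replicates 1 to 5. Control replicate 3 was the highest and the groups overlapped, with a log2 difference of -0.067 (standard error 0.13, 95% interval from -0.35 to 0.22).

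The Kcnq1 locus is silenced on the paternal copy by the long antisense RNA Kcnq1ot1. Kcnq1ot1 stood at 7.41, 7.50, 7.09, 7.36 and 7.83 in Uba3 cKO replicates 1 to 5, against 7.49, 7.79, 7.92, 7.73 and 7.65 in control replicates 1 to 5. Of the Uba3 cKO libraries, 3 lay below every control, while replicate 5 lay second highest of all 10. The log2 difference was -0.28 (standard error 0.13, 95% interval from -0.56 to -0.003), with an unadjusted limma p of 0.0479 and an exact two-sided permutation p of 0.0952. It was -0.38 without Uba3 cKO replicate 5 and -0.19 without Uba3 cKO replicate 3, and the unadjusted p was over 0.05 whenever a library other than control replicate 1 or Uba3 cKO replicate 5 was left out. Cdkn1c encodes p57, an inhibitor of the cell cycle that is expressed from the maternal copy of this locus. Cdkn1c stood at 6.77, 6.89, 6.66, 6.93 and 6.33 in Uba3 cKO replicates 1 to 5, against 6.87, 7.02, 6.85, 6.67 and 6.59 in control replicates 1 to 5. The groups overlapped, Uba3 cKO replicate 5 was the lowest library and the log2 difference was -0.082 (standard error 0.12, 95% interval from -0.35 to 0.19). Exons of another annotated gene on the opposite strand overlap 30.7% of the exon bases of Cdkn1c, and whether reads were counted by strand is not given in the sources used here.

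Peg10 and Sgce are paternally expressed neighbours. Peg10 derives from a retrotransposon and is needed for the placenta, and Sgce encodes a sarcoglycan of the cell membrane. Peg10 stood at 9.96, 10.03, 10.34, 9.50 and 10.18 in Uba3 cKO replicates 1 to 5, against 10.80, 10.08, 10.45, 10.26 and 10.20 in control replicates 1 to 5. Control replicate 1 was the highest and Uba3 cKO replicate 4 the lowest of the 10 libraries. The log2 difference of Peg10 was -0.36 (standard error 0.16, 95% interval from -0.70 to -0.022), with an unadjusted limma p of 0.0387 and an exact two-sided permutation p of 0.0873. Without control replicate 1 it was -0.25 and without Uba3 cKO replicate 4 it was -0.23, both with an unadjusted p over 0.05, as was the case without control replicate 3 or Uba3 cKO replicates 1 or 2. Sgce stood at 9.96, 9.80, 9.92, 9.80 and 9.995 in Uba3 cKO replicates 1 to 5, against 10.03, 9.71, 9.92, 10.03 and 9.80 in control replicates 1 to 5. The log2 difference of Sgce was -0.0034 (standard error 0.076, 95% interval from -0.17 to 0.16), and the contrast between the neighbours was not tested.

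**Figure D2:**
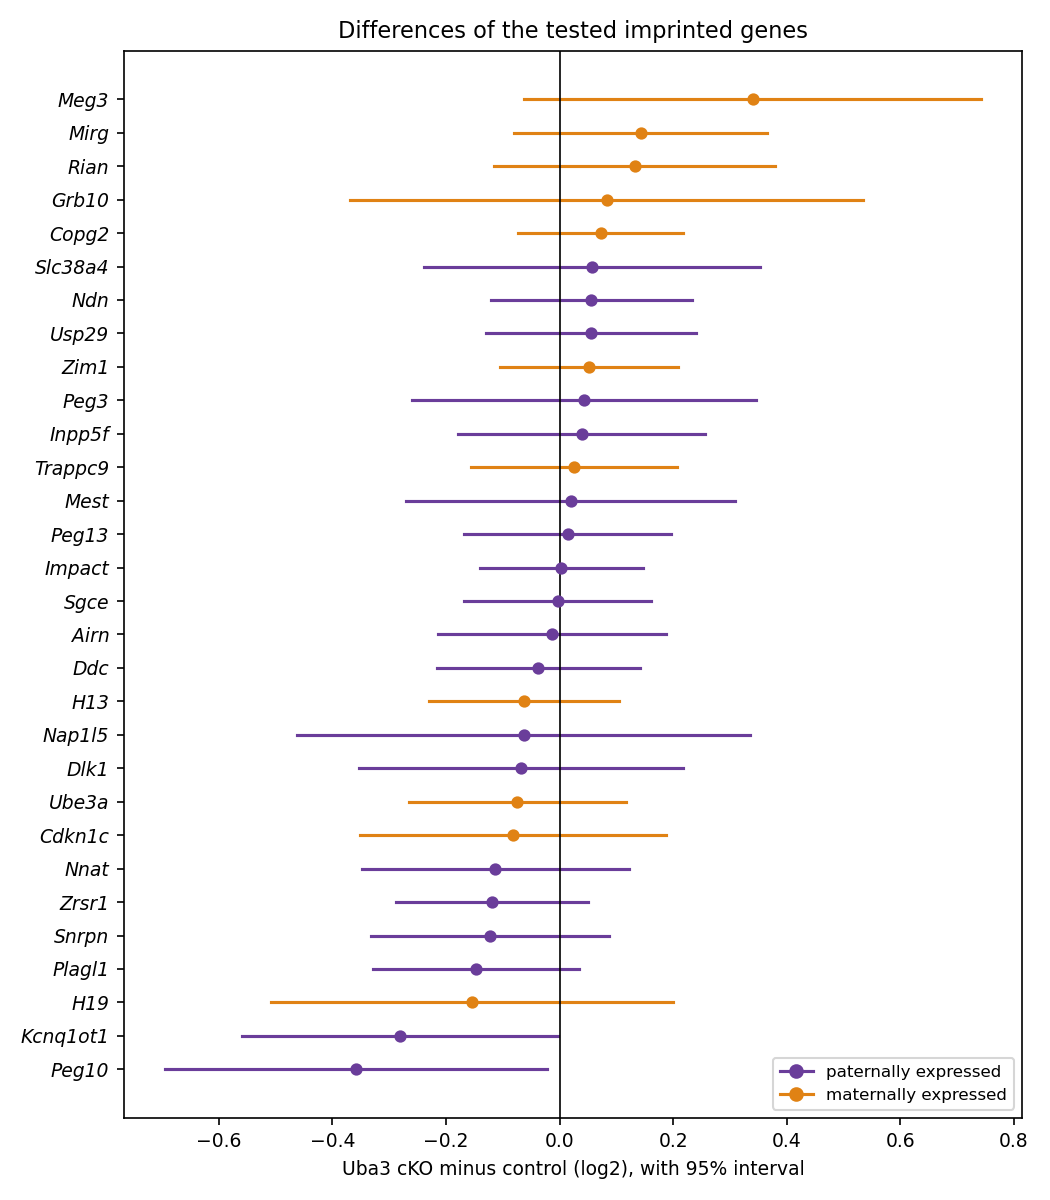
Log2 difference (x axis, Uba3 cKO minus control) of the 30 tested imprinted genes, with 95% intervals from limma, coloured by the parental copy known to be expressed. Peg10 at -0.36 and Kcnq1ot1 at -0.28 have intervals that end just below 0, and Meg3 at 0.34 has the highest difference.

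H19, a maternally expressed noncoding RNA that limits growth, averaged 8.14 ± 0.13 in Uba3 cKO ovaries and 8.30 ± 0.41 in controls (SD, n = 5 each). Control replicate 3 was the highest library of H19 at 8.94, and without it the log2 difference was 0.0062, against -0.15 with all libraries. Plagl1 stood at 11.50, 11.48, 11.54, 11.32 and 11.80 in Uba3 cKO replicates 1 to 5, against 11.70, 11.70, 11.61, 11.56 and 11.81 in control replicates 1 to 5. The log2 difference was -0.15 (standard error 0.084, 95% interval from -0.33 to 0.033), and Uba3 cKO replicate 4 was the lowest library. Grb10 encodes an adaptor that dampens insulin and growth factor signalling. Grb10 stood at 9.32, 9.71, 9.06, 9.69 and 8.79 in Uba3 cKO replicates 1 to 5, against 9.70, 9.45, 8.80, 9.41 and 8.80 in control replicates 1 to 5. Both groups spread over nearly the same range, and the log2 difference was 0.083 (standard error 0.21, 95% interval from -0.37 to 0.54). Its neighbour Ddc, the enzyme that makes dopamine and serotonin, was low throughout. Ddc stood at 5.05, 4.90, 4.99, 5.10 and 5.30 in Uba3 cKO replicates 1 to 5, against 5.02, 5.07, 5.14, 5.23 and 5.07 in control replicates 1 to 5. Ddc differed by -0.037 between overlapping groups.

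In the Peg3 locus the paternally expressed Peg3, a zinc finger protein linked to maternal behaviour, stands beside the maternally expressed zinc finger gene Zim1. Peg3 stood at 8.41, 8.99, 8.38, 8.82 and 8.91 in Uba3 cKO replicates 1 to 5, against 8.84, 8.84, 8.32, 8.75 and 8.54 in control replicates 1 to 5. Zim1 stood at 4.28, 4.33, 4.07, 4.39 and 4.20 in Uba3 cKO replicates 1 to 5, against 4.34, 4.19, 4.09, 4.18 and 4.22 in control replicates 1 to 5. Both genes overlapped between the groups, with log2 differences of 0.043 for Peg3 and 0.052 for Zim1, and Usp29 differed by 0.055. Mest, a paternally expressed hydrolase of the mesoderm, and Copg2, a subunit of the coat of Golgi vesicles, overlap at their ends. Mest stood at 8.75, 9.05, 8.54, 8.98 and 8.42 in Uba3 cKO replicates 1 to 5, against 8.80, 8.77, 8.37, 8.94 and 8.76 in control replicates 1 to 5. Copg2 stood at 10.44, 10.51, 10.55, 10.54 and 10.47 in Uba3 cKO replicates 1 to 5, against 10.46, 10.38, 10.23, 10.49 and 10.58 in control replicates 1 to 5. The log2 differences were 0.019 for Mest and 0.072 for Copg2. Because 23.1% of the exon bases of Mest and 17.8% of those of Copg2 are shared with the other gene on the opposite strand, reads there may be split between them.

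Members best known from the brain were also present in the ovary. The locus of the Prader-Willi and Angelman syndromes gives Snrpn, a splicing protein, and Ndn, a MAGE family protein, from the paternal copy, and Ube3a, a ubiquitin ligase, from the maternal copy in neurons. Snrpn stood at 7.71, 7.74, 7.56, 7.53 and 7.92 in Uba3 cKO replicates 1 to 5, against 7.63, 7.73, 7.91, 7.88 and 7.94 in control replicates 1 to 5. Ube3a stood at 10.65, 11.04, 10.76, 11.04 and 10.93 in Uba3 cKO replicates 1 to 5, against 10.92, 10.91, 10.84, 10.96 and 11.17 in control replicates 1 to 5. The groups overlapped in both, with log2 differences of -0.12 (standard error 0.10, 95% interval from -0.33 to 0.087) for Snrpn and -0.074 (standard error 0.088, 95% interval from -0.27 to 0.12) for Ube3a. Exons of other annotated genes overlap 34.1% of the exon bases of Snrpn and 27.3% of those of Ube3a, in Ube3a on the opposite strand. Ndn stood at 9.65, 9.75, 9.49, 9.75 and 9.47 in Uba3 cKO replicates 1 to 5, against 9.63, 9.60, 9.64, 9.61 and 9.34 in control replicates 1 to 5. Control replicate 5 was the lowest and the groups overlapped, with a log2 difference of 0.056 (standard error 0.082, 95% interval from -0.12 to 0.23). Nap1l5 stood at 12.01, 12.46, 12.30, 12.43 and 13.04 in Uba3 cKO replicates 1 to 5, against 12.72, 12.02, 12.40, 12.90 and 12.52 in control replicates 1 to 5. Uba3 cKO replicate 5 and control replicate 4 were the highest, and the log2 difference was -0.063 (standard error 0.18, 95% interval from -0.46 to 0.34). Nnat averaged 11.87 ± 0.13 in Uba3 cKO ovaries and 11.98 ± 0.24 in controls (SD, n = 5 each).

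Trappc9, a part of a vesicle tethering complex, holds the paternally expressed noncoding RNA Peg13 in an intron. Trappc9 stood at 10.29, 10.50, 10.46, 10.63 and 10.64 in Uba3 cKO replicates 1 to 5, against 10.63, 10.37, 10.54, 10.30 and 10.55 in control replicates 1 to 5. Peg13 stood at 9.27, 9.63, 9.40, 9.62 and 9.52 in Uba3 cKO replicates 1 to 5, against 9.60, 9.46, 9.52, 9.50 and 9.28 in control replicates 1 to 5. The log2 difference was 0.025 for Trappc9 and 0.014 for Peg13, and the groups overlapped. Inpp5f, a phosphoinositide phosphatase, has a known imprinted transcript in the brain. Inpp5f stood at 8.32, 8.46, 8.04, 8.35 and 8.21 in Uba3 cKO replicates 1 to 5, against 8.05, 8.50, 8.21, 8.18 and 8.24 in control replicates 1 to 5. Its log2 difference was 0.039 (standard error 0.10, 95% interval from -0.18 to 0.26). The remaining members were Zrsr1, a splicing factor relative inside an intron of Commd1, Impact, a regulator of translation, H13, Slc38a4, an amino acid transporter, and Airn, the antisense RNA that silences Igf2r. Their log2 differences ran from -0.12 for Zrsr1 to 0.058 for Slc38a4. Zrsr1 averaged 6.89 ± 0.044 in Uba3 cKO ovaries and 7.01 ± 0.10 in controls (SD, n = 5 each), with an unadjusted limma p of 0.151 and an exact two-sided permutation p of 0.0397. Impact had the smallest spread of the tested members, with 8.76 ± 0.082 in Uba3 cKO ovaries and 8.76 ± 0.064 in controls (SD, n = 5 each).

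**Figure D3:**
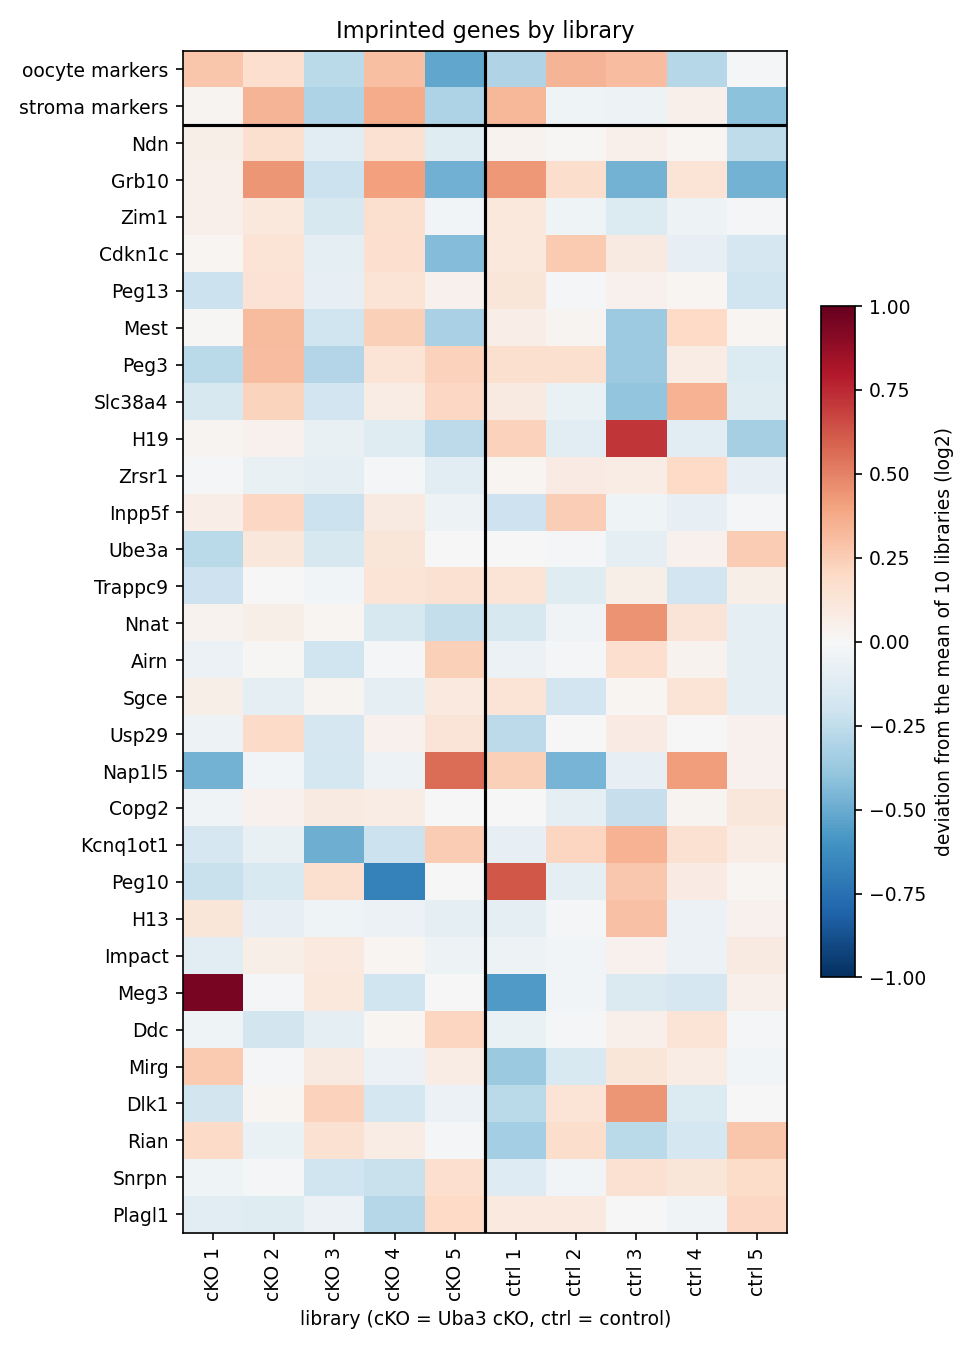
Deviation of each tested imprinted gene (rows, ordered by r with the stroma markers) and of the oocyte and stroma marker levels (top rows) from its mean over the 10 libraries (columns), in log2 units. Control replicate 3 is high for H19, Nnat and Dlk1, Uba3 cKO replicate 1 is high for Meg3, and Grb10 deviates in the same direction as the stroma row in most libraries.

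Members of a locus with opposite parental expression by textbook knowledge were also compared within each library. For some genes, such as Ube3a in neurons, that expression is known from a few tissues only, and it was not tested in these ovaries. The comparison took the maternal gene's log2 level minus the paternal gene's. Library scaling cancels in it if the values are plain log2 of scaled counts, which is not known because the transform is not named. Of the 8 pairs planned, 7 had both genes tested, and in 0 of 7 was p under 0.05 (exact two-sided permutation test, smallest possible p 0.00794). For Meg3 minus Dlk1 it was 4.12, 2.96, 2.87, 2.97 and 3.05 in Uba3 cKO replicates 1 to 5, against 2.70, 2.83, 2.41, 2.96 and 3.05 in control replicates 1 to 5. The Uba3 cKO mean was higher by 0.41 (exact permutation p = 0.0952), and by 0.18 without Uba3 cKO replicate 1. For Cdkn1c minus Kcnq1ot1 it averaged -0.72 ± 0.45 in Uba3 cKO ovaries and -0.92 ± 0.21 in controls (SD, n = 5 each, exact permutation p = 0.421). Uba3 cKO replicate 5 lay at -1.50, below every other library, and without it the difference was 0.39 (exact permutation p = 0.0238). Each library was left out in turn, and this p is not adjusted for those choices or for the 7 pairs. It is not taken as a group difference. The other 5 pairs differed by 0.0088 to 0.12 between the groups, with exact permutation p from 0.683 to 0.952. H19 minus Igf2 was not tested, since Igf2 lay below the level tested.

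**Figure D4:**
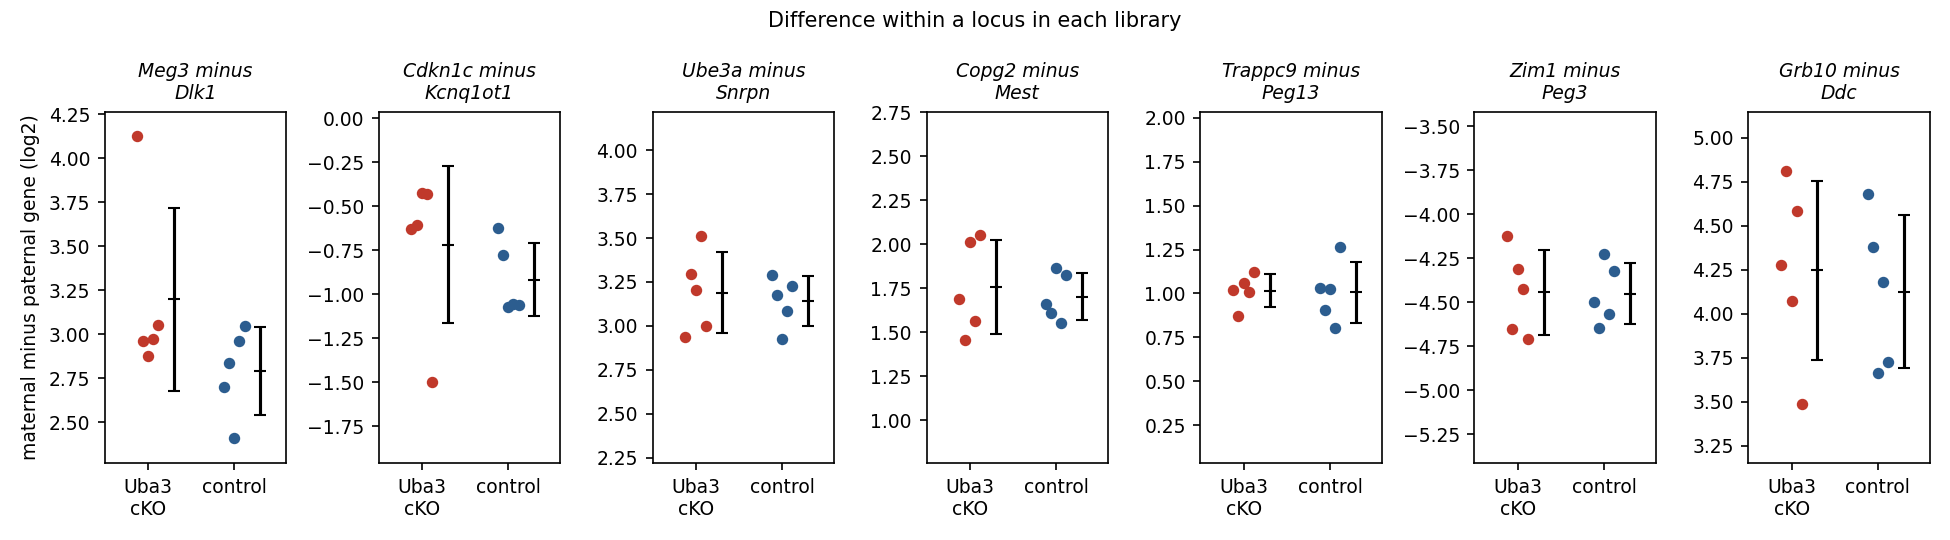
Log2 level of the gene known as maternally expressed minus that of the gene known as paternally expressed in the same locus (y axis, each panel spanning 2 log2 units). There is 1 point per library, with group mean and SD as bars, and parental expression was not tested here. Uba3 cKO replicate 1 stands at 4.12 for Meg3 minus Dlk1 and Uba3 cKO replicate 5 at -1.50 for Cdkn1c minus Kcnq1ot1, and the groups overlap in every panel.

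The spread of the imprinted genes between libraries was described over both groups. Among the 19 tested members with a mean of at least 8, the median SD over the 10 libraries was 0.15, beside 0.13 for the 9207 genes of that level, and 6 members (H19, Peg3, Peg10, Meg3, Grb10 and Nap1l5) lay above the 90th percentile of 0.24. Grb10 had the largest SD, 0.385, with Meg3 almost level at 0.383. By the range over the libraries Grb10 (0.92) lay below Meg3 (1.51), Peg10 (1.30), H19 (1.05) and Nap1l5 (1.03).

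Grb10 was higher in libraries with more stromal RNA. With the mean of 12 stroma markers (collagens, Pdgfra, Tcf21 and others, none of them a member) as a continuous regressor over all 10 libraries, Grb10 rose by 1.20 log2 units per log2 unit of the markers (standard error 0.19, limma adjusted p = 0.0066 over all genes). It was the only one of 30 members called, which is 3.33% of them, against 1.66% of all genes tested (1.6% higher with the level). At an unadjusted p under 0.05 there were 7 of 30 members, against 10.4% of all genes. Pearson's r was 0.89 (permutation p = 0.00103) and Spearman's rho 0.87 (permutation p = 0.0023), and r was 0.84 without the 2 libraries farthest from the median. Within the groups r was 0.97 in Uba3 cKO ovaries and 0.81 in controls, and the call held in 16 of 16 alternatives, with slopes from 1.14 to 1.29. Grb10 also had an r of 0.76 with the theca markers (permutation p = 0.0062, rho 0.73 with permutation p = 0.0207), 0.76 with smooth muscle (permutation p = 0.0121, rho 0.82 with permutation p = 0.00659) and 0.71 with endothelium (permutation p = 0.0266, rho 0.76 with permutation p = 0.0155). Without the 2 libraries farthest from the median of each level, r was 0.68 with theca, 0.63 with smooth muscle and 0.66 with endothelium. These were among 11 cell types looked at after the stroma result was seen, and which cells carried the Grb10 RNA was not tested.

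Ndn had the highest r with the stroma markers, 0.91 (permutation p = 0.0003, rho 0.84 with permutation p = 0.00368, r 0.87 without the 2 farthest libraries). Its slope was smaller than that of Grb10, 0.41 log2 units (standard error 0.10), and did not pass adjustment over all genes (limma adjusted p = 0.0722). With the endothelial markers r was 0.88 (permutation p = 0.00026, rho 0.90 with permutation p = 0.0007, r 0.87 without the 2 farthest libraries). With smooth muscle it was 0.77 (permutation p = 0.00877, rho 0.85 with permutation p = 0.00286, r 0.92 without the 2 farthest libraries). It was 0.61 with theca (permutation p = 0.0603) and 0.0086 with the immune markers. These further cell types were looked at after the stroma result was seen. Zim1 and Cdkn1c had r of 0.74 and 0.69 with the stroma markers (permutation p = 0.0156 and 0.0245), with limma adjusted p of 0.384 and 0.333. Without the 2 farthest libraries these were 0.79 for Zim1 and 0.62 for Cdkn1c, and rho was 0.67 for Zim1 and 0.71 for Cdkn1c (permutation p = 0.0403 and 0.0264). Mest and Peg13 also rose with the stroma markers (r 0.67 and 0.69) and Plagl1 fell (r -0.64), each at an unadjusted limma p under 0.05. Their limma adjusted p were 0.291, 0.393 and 0.402, and without the 2 farthest libraries r was 0.76, 0.48 and -0.31. Over the 30 members r with the stroma markers was positive for 14 and negative for 16. In all, 60 relations of members with the stroma and oocyte levels were computed. Their permutation p-values are not adjusted for that number, and calls rest on the limma values, which are adjusted over all genes tested.

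Nap1l5 was lower in libraries with more oocyte RNA. Its slope on the mean of 23 oocyte markers was -0.84 log2 units (standard error 0.19, limma adjusted p = 0.0419), again 1 of 30 members, against 2.46% of all genes tested (2.1% higher and 0.358% lower with the level). At an unadjusted p under 0.05 there were 4 of 30 members, against 17.7% of all genes. Pearson's r was -0.79 (permutation p = 0.00578) and rho -0.77 (permutation p = 0.0115), and r was -0.62 without the 2 farthest libraries and -0.72 in Uba3 cKO ovaries and -0.91 in controls. This call was lost in 9 of 16 alternatives, 7 of them leaving out 1 library (control replicates 1, 2, 4 and 5 and Uba3 cKO replicates 1, 2 and 5), and 2 being quantile normalization and the group as covariate, with slopes between -0.98 and -0.71 throughout. Herc3, the gene around Nap1l5, stood at 9.17 ± 0.16 in Uba3 cKO ovaries and 9.02 ± 0.16 in controls (SD, n = 5 each). Cdkn1c and Inpp5f went the other way, with r of 0.76 and 0.72 (permutation p = 0.00721 and 0.0221), and Sgce had an r of -0.68 (permutation p = 0.0345). None of these 3 passed adjustment over all genes (limma adjusted p = 0.131, 0.194 and 0.242). Without the 2 farthest libraries r was 0.79, 0.74 and -0.54, and rho over all libraries was 0.67, 0.73 and -0.79 (permutation p = 0.0385, 0.0199 and 0.00859), in the order Cdkn1c, Inpp5f and Sgce. With smooth muscle Cdkn1c had an r of 0.77 (permutation p = 0.00858, rho 0.70 with permutation p = 0.0302). With endothelium it was 0.74 (permutation p = 0.0129, rho 0.76 with permutation p = 0.015), and with granulosa 0.062. Without the 2 libraries farthest in each level, r was 0.56 with smooth muscle and 0.76 with endothelium. These further cell types were added after the data were seen, and which cells carried the Cdkn1c RNA was not tested.

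**Figure D5:**
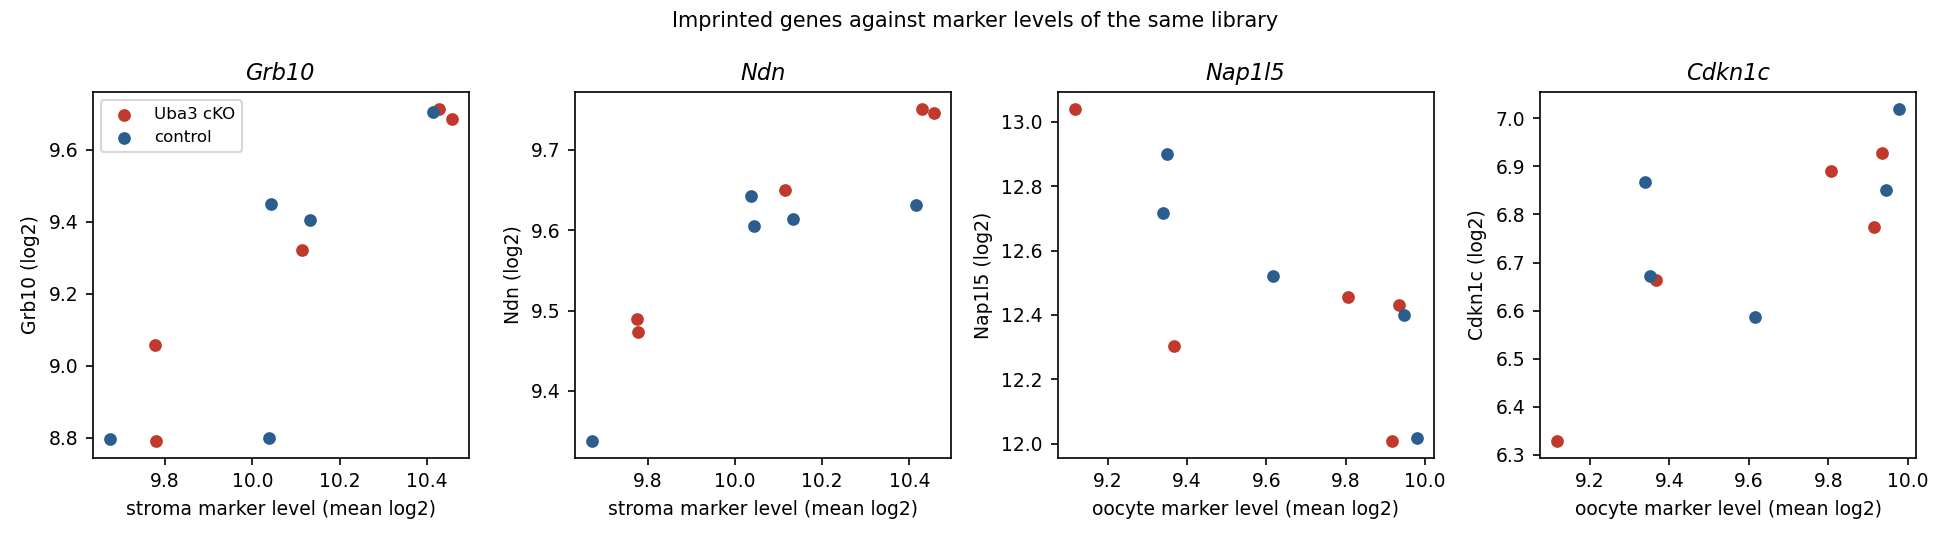
Log2 level of Grb10 and Ndn against the mean log2 level of 12 stroma markers, and of Nap1l5 and Cdkn1c against that of 23 oocyte markers, 1 point per library. Over the 10 libraries r is 0.89 for Grb10, 0.91 for Ndn, 0.76 for Cdkn1c and -0.79 for Nap1l5.

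No gene was called in a further list of imprinted genes or among the machinery that sets and keeps imprints. Of 34 other imprinted genes tested, 18 had the higher mean in Uba3 cKO ovaries and 16 the lower, with a median log2 difference of 0.022, 0 called and 0 at an unadjusted p under 0.05 (limma). The smallest p values belonged to Peg12, at 6.26 ± 0.31 in Uba3 cKO ovaries and 5.99 ± 0.23 in controls, and Asb4, at 8.93 ± 0.63 in Uba3 cKO ovaries and 9.34 ± 0.18 in controls (SD, n = 5 each). Herc3 (values above) and Gab1, at 10.08 ± 0.030 in Uba3 cKO ovaries and 10.16 ± 0.080 in controls, came next. Among 36 imprint regulators, 28 were higher and 8 lower with a median of 0.028, beside 50.2% higher among all genes tested, and 0 were at an unadjusted p under 0.05. They include Zfp57 at 10.71 ± 0.28 in Uba3 cKO ovaries and 10.76 ± 0.41 in controls, its partner Trim28 at 13.39 ± 0.11 in Uba3 cKO ovaries and 13.33 ± 0.034 in controls, and the DNA methyltransferase cofactor of oocytes, Dnmt3l, at 7.68 ± 0.26 in Uba3 cKO ovaries and 7.63 ± 0.28 in controls (SD, n = 5 each). By the rule for named genes the others were Dnmt3b, a DNA methyltransferase, with a log2 difference of 0.12, Rlim, a ubiquitin ligase, with -0.090, Tdg, a DNA glycosylase, with 0.11, and Mbd2, a protein that binds methylated DNA, with -0.083. Zfp57, Trim28 and Dnmt3l were named after their values were seen.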

How the data were processed

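Per the submitters' processing notes, the tools were fastp, STAR, featureCounts and DESeq2 with genome build GRCm39; versions, roles and strand setting are not given in the sources used here. The authors deposited 1 table of log2 values (-0.21 to 20.19) for 22891 genes, whose transform is not named. No counts could be recovered, so depth and counting error are unknown. Symbols, lengths and neighbours came from GENCODE M21 (GRCm38), which matched 22188 identifiers, and no positions of that build are set against the table.

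The group comparison of genes averaging 3.32 or more used limma 3.58.1 (R 4.3.3) (mean-variance trend, no covariate, Benjamini-Hochberg threshold 0.05), which was tested on simulated data. Intervals are at 95%. Single values were compared with exact two-sided permutation tests and correlations with 100000 permutations. Values in every library are given for within-locus pairs, the 4 members with the smallest p, the 4 with the widest SD and the 4 with the largest r against each marker level, and from the lists of other imprinted genes and regulators the 4 with the smallest p are named. The 13 lists held 209 genes, of which 195 were found. Members and lists were chosen with earlier results of these data known. The r values with further cell types, and 3 of the named regulators, were added after the data were seen. No pair of libraries was identical.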

Additional observations from a re-analysis of the deposited data

Results flagged for a closer look

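In 74 sets of 5 libraries (30 members and 7 within-locus differences, in each group), a library whose gap to its neighbour exceeded 0.71 of the group's range was looked for. There were 6, and chance alone gives about 1 in 20, here 3.7. In Uba3 cKO replicate 1, Meg3 stood at 10.51, against 9.36 to 9.66 in the other Uba3 cKO libraries. The same library gave 4.12 for Meg3 minus Dlk1, against 2.87 to 3.05 in the others. H13 stood at 11.75 in Uba3 cKO replicate 1, against 11.54 to 11.58 in the others of that group. Cdkn1c minus Kcnq1ot1 was -1.50 in Uba3 cKO replicate 5, against -0.63 to -0.42 in the others. Ndn stood at 9.34 in control replicate 5, against 9.60 to 9.64 in the other controls. Usp29 stood at 4.03 in control replicate 1, against 4.29 to 4.38 in the other controls. The source of these values was not tested.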

How the results depend on the processing

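Against the 19 alternatives of the group comparison, the number of members called stayed at 0 and the median log2 difference lay between -0.026 and 0.024. The number of members at an unadjusted p under 0.05, 2 in all libraries, was 1 with array quality weights, 1 with the oocyte marker level as covariate, 1 with the stroma marker level as covariate and 0 to 3 when a library was left out. Members called against the oocyte marker level, 1 in all libraries, were 0 after quantile normalization, 0 with the group as covariate and 0 to 1 when a library was left out. Against the stroma marker level they were 1 to 2 when a library was left out, with Ndn added without control replicate 3. Within-locus differences under the exact permutation threshold were 0 to 1 when a library was left out. In those settings the log2 difference changed sign for Copg2 minus Mest (-0.022 to 0.13), Grb10 minus Ddc (-0.021 to 0.31), Trappc9 minus Peg13 (-0.040 to 0.076), Ube3a minus Snrpn (-0.032 to 0.11) and Zim1 minus Peg3 (-0.072 to 0.075), and the cause was not tested. The groups share replicate numbers, and whether these pair the libraries is not given by the labels used here. Same-numbered libraries had correlations of their deviations between -0.27 and 0.28, and differently numbered ones between -0.35 and 0.45. These correlations cannot tell whether same-numbered samples shared a litter or batch. With the replicate block 2 members, Peg10 and Plagl1, were at an unadjusted p under 0.05 (Kcnq1ot1 at 0.067 by limma) and 0 were called, and the smallest p of the paired within-locus exact sign-flip tests, for Meg3 minus Dlk1, was 0.0625, the smallest 5 pairs allow.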
